A study of Homo sapiens with 6 samples.

Results

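The plasminogen activator system was followed here through 9 genes, taken by name from a count table of 60671 genes in 6 libraries: PLAU, PLAUR, PLAT, SERPINE2, SERPINB2, SERPINB8, TIMP1, TIMP2 and TIMP3. All 9 gene identifiers were found in the table. RNA came from A549, HCC827 and H1975, established human non-small cell lung cancer lines whose genotype is labelled WT, after 48 h with the compound AL-X (10 µg/mL) or its solvent control DMSO. AL-X is 9α,11α-dihydroxy-kaurenoic acid, a diterpenoid. Each line gave 1 AL-X and 1 DMSO library, so the 3 AL-X libraries (A549, HCC827, H1975) were set against the 3 DMSO libraries of the same lines. HCC827 and H1975 are known to carry mutant EGFR, and each line is a single tumour's descendant grown in culture without stroma or blood plasma. The labels do not say how many cultures went into each library, and in bulk RNA fewer cells of a type and less RNA per cell cannot be told apart.

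The urokinase-type activator (PLAU) and the tissue-type activator (PLAT) are serine proteases that cut plasminogen into plasmin, which dissolves fibrin and degrades matrix around cells. The urokinase receptor (PLAUR) is anchored in the cell membrane and holds urokinase at the surface, where tumour cells use it in invasion. Serpins trap such proteases, and plasmin in turn activates matrix metalloproteinases, which the TIMP proteins inhibit. Of the serpins here, SERPINE2 (protease nexin-1) is secreted and inhibits thrombin and both activators, SERPINB2 inhibits urokinase, and SERPINB8 belongs to the mostly intracellular clade B and can inhibit furin.

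Library totals ran from 98139178 to 121552821 counts with AL-X and from 104648304 to 126840915 with DMSO. Levels are given as counts per 1e6 counts (CPM) after TMM scaling, whose factors ran from 0.557 (A549) to 1.27 (HCC827) with AL-X and from 1.12 to 1.20 with DMSO. Genes of the mitochondrial genome took 0.0201% to 0.656% of counts with AL-X and 6.41% to 6.87% with DMSO. With these genes left out, each across-line fold of the 9 genes moved by under 0.01 log2 units. The summed level of 5 epithelial markers was 2125 to 3953 CPM with AL-X and 2777 to 4368 CPM with DMSO. The sum hides differences between the markers. CDH1 was at 15.6, 606 and 599 CPM in A549, HCC827 and H1975 with AL-X, against 209, 405 and 595 CPM with DMSO. EPCAM was low in A549 (1.47 CPM with AL-X, 2.67 with DMSO), as was the lung lineage factor NKX2-1 (0 and 0.0821 CPM), which was at 40.6 CPM in HCC827 and 18.8 in H1975 with AL-X, against 247 and 141 CPM with DMSO. The 4 lung lineage markers summed to 0.223, 97.6 and 32.3 CPM in A549, HCC827 and H1975 with AL-X, against 1.297, 464 and 148 CPM with DMSO, and their part in the results below was not tested. Other cell types left little trace. PTPRC and CD3E were at 0 in all 6 libraries, and the summed leukocyte markers were 1.33 to 5.83 CPM with AL-X and 0.427 to 6.31 with DMSO. The 3 endothelial markers summed to 0.705 to 0.988 CPM and 0.222 to 3.41 CPM, and the 4 fibroblast markers to 1.17 to 8.89 CPM and 6.40 to 20.5 CPM.

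The stretches of DNA upstream of PLAUR, SERPINB8 and TIMP1 are shown because these 3 genes were the ones whose AL-X libraries all lay above all DMSO libraries. Each line holds the 250 bases before the RefSeq start (GRCh38.p14), in the direction of transcription. These starts lie inside the gene bounds given below, which come from another annotation. By those bounds the PLAUR window lies within the gene, and the SERPINB8 and TIMP1 windows run into it. Capitals mark the AP-1 motif TGANTCA, which FOS and JUN family factors are known to bind, searched on both strands (its reverse complement is the same pattern).
PLAUR, chr19:43670170-43670419, minus strand: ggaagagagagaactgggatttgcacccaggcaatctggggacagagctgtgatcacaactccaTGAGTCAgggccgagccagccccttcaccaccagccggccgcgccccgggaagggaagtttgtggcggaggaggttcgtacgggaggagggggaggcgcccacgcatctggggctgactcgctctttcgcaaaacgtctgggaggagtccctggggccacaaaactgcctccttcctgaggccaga
SERPINB8, chr18:63969831-63970080, plus strand: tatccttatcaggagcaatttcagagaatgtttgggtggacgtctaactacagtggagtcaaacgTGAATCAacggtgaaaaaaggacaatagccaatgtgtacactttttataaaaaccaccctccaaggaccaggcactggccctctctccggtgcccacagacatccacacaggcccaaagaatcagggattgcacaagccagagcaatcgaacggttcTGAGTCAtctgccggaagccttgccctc
TIMP1, chrX:47582186-47582435, plus strand: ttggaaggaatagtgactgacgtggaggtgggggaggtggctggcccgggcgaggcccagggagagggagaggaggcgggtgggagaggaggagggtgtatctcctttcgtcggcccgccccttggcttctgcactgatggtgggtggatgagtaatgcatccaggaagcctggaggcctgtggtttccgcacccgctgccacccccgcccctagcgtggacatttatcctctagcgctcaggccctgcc
The PLAUR window holds the motif once, at -186 to -180 from the start. The SERPINB8 window holds it at -185 to -179 and at -28 to -22, and the TIMP1 window does not hold these letters. RefSeq windows were searched for 7 of the 9 genes (9 windows), and PLAT and TIMP2 were not part of the search. The motif was in 3 of the 9 windows, those of PLAUR and SERPINB8 and that of SERPINB2 at -102 to -96. Among all 35116 windows of this length, 6.57% hold it. The cyclic AMP element TGACGTCA (1.65% of all windows) was in none of the 9 windows. The E-box CACGTG (6.34%) and the antioxidant element core TGACNNNGC (10.9%) were both in 1 of the 2 SERPINE2 windows, where they overlap, and the core alone was in 1 of the 2 PLAU windows. A TGACNNNGC match can share bases with TGANTCA. A match describes the letters only, and binding was not measured.

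The first comparison asked which of these genes differed with AL-X in all lines, and the clearest differences were in PLAUR, SERPINB8 and TIMP1. PLAUR (ENSG00000011422, GRCh38 chromosome 19, 43646095 to 43670547, minus strand) was at 194 CPM in A549, 66.1 in HCC827 and 222 in H1975 with AL-X, against 18.2, 31.7 and 58.0 CPM in the same lines with DMSO. Every AL-X library was above every DMSO library. The across-line fold was 2.13 log2 units (SE 0.57, n = 3 lines), a 4.37-fold higher level, at an edgeR quasi-likelihood adjusted p of 0.147 and an unadjusted p of 0.00296. It did not pass the threshold of 0.05.

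SERPINB8 (ENSG00000166401, chromosome 18, 63969925 to 64019779, plus strand) was at 71.2, 27.4 and 32.2 CPM in A549, HCC827 and H1975 with AL-X, against 7.24, 13.2 and 7.36 CPM with DMSO. The groups did not overlap, and the DMSO libraries of A549 and H1975 were close to each other. The across-line fold was 2.16 log2 units (SE 0.60, edgeR adjusted p = 0.150). TIMP1 (ENSG00000102265, chromosome X, 47582313 to 47586789, plus strand), a secreted inhibitor of metalloproteinases, was at 314, 71.4 and 152 CPM in A549, HCC827 and H1975 with AL-X, against 45.4, 43.6 and 42.3 CPM with DMSO. The AL-X libraries spread widely around their mean of 179 ± 123 CPM, while the DMSO libraries stood at 43.8 ± 1.56 CPM (SD, n = 3 each). The across-line fold was 1.78 log2 units (SE 0.55, edgeR adjusted p = 0.178). With library totals as the only scaling the groups of these 3 genes still did not overlap.

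**Figure D1:**
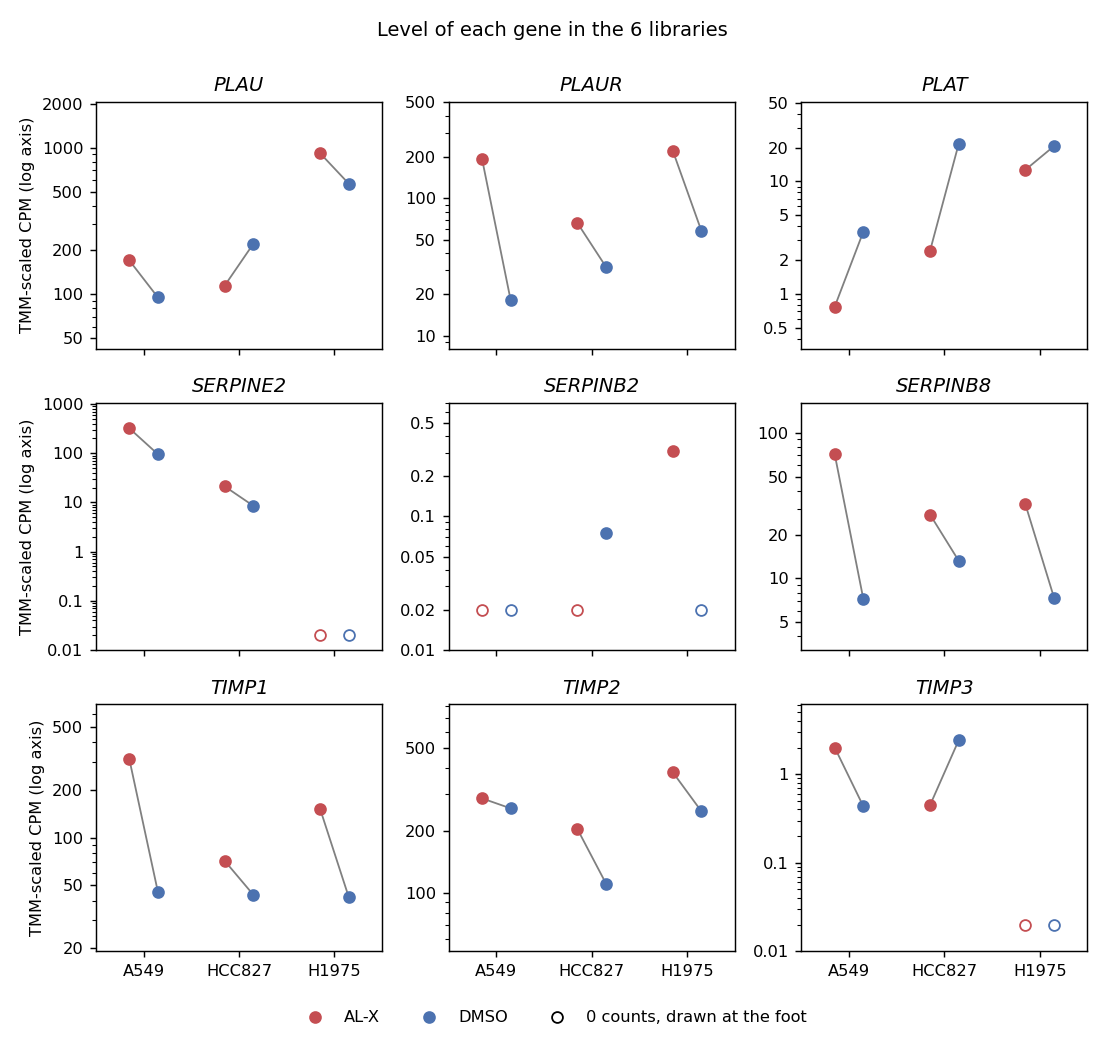
TMM-scaled CPM (log axis, its range differs by panel) of each gene in the 6 libraries, AL-X left and DMSO right within each line, joined where both have counts; open circles are libraries with 0 counts. PLAUR, SERPINB8 and TIMP1 are higher with AL-X in each line and PLAT is lower, while PLAU and TIMP3 differ in direction between lines (PLAU in A549 is higher with TMM scaling and lower with library totals).

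PLAT went the other way. The tissue-type activator (ENSG00000104368, chromosome 8, 42175233 to 42207724, minus strand) was at 0.772, 2.43 and 12.7 CPM in A549, HCC827 and H1975 with AL-X, against 3.58, 21.6 and 20.6 CPM with DMSO. All 3 lines had less with AL-X, but the groups overlapped, since H1975 with AL-X lay above A549 with DMSO. The across-line fold was -2.03 log2 units (SE 0.73, edgeR adjusted p = 0.233).

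PLAU (ENSG00000122861, chromosome 10, 73909177 to 73917497, plus strand), the ligand of PLAUR, showed no common direction. It was at 170, 114 and 917 CPM in A549, HCC827 and H1975 with AL-X, against 95.1, 221 and 569 CPM with DMSO. H1975 was the highest line under both treatments, and HCC827 was the line in which AL-X was lower. The across-line fold was 0.21 log2 units (SE 0.62, edgeR adjusted p = 0.888). Leaving out A549 turned it to -0.08, leaving out H1975 to -0.06, and library totals to -0.23.

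SERPINE2 (ENSG00000135919, chromosome 2, 223975112 to 224039319, minus strand) was at 323 and 21.3 CPM in A549 and HCC827 with AL-X, against 95.7 and 8.56 CPM with DMSO. H1975 had 0 counts in both libraries, which allows up to 0.0297 CPM with AL-X and 0.0239 CPM with DMSO, so the across-line fold of 1.52 log2 units (SE 0.58, edgeR adjusted p = 0.254) rests on 2 lines. SERPINB2 (ENSG00000197632, chromosome 18, 63871692 to 63903890, plus strand) did not pass the filter on low counts. With AL-X 31 counts were found in H1975 and 0 in the other lines, and with DMSO 11 were found in HCC827 and 0 in the other lines. Against a floor of 3 counts in the empty library, it was at least 12.8-fold higher with AL-X in H1975 and at least 3.10-fold lower in HCC827.

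TIMP2 (ENSG00000035862, chromosome 17, 78852977 to 78925387, minus strand), which also takes part in the activation of MMP2 by MMP14, was at 286, 203 and 383 CPM in A549, HCC827 and H1975 with AL-X, against 256, 111 and 248 CPM with DMSO. Its across-line fold was 0.56 log2 units (SE 0.53, edgeR adjusted p = 0.613), close to its SE. TIMP3 (ENSG00000100234, chromosome 22, 32801701 to 32863043, plus strand), the matrix-bound member of the family, was near the floor. It was at 2.00 and 0.449 CPM in A549 and HCC827 with AL-X, against 0.435 and 2.42 CPM with DMSO, and at 0 counts in both H1975 libraries. Its across-line fold of -0.11 log2 units (SE 1.76, edgeR adjusted p = 0.981) averages opposite directions, and became 1.89 without HCC827 and -2.25 without A549.

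Of the 9 genes 8 passed the filter and 0 were called by edgeR at adjusted p under 0.05, against a background of 0.0983% of 20344 genes called higher and 0.157% called lower. At unadjusted p under 0.05, 4 of the 8 were higher (PLAUR, SERPINB8, TIMP1, SERPINE2) and 1 lower (PLAT), against 5.48% and 10.2% of all genes. Groups did not overlap for 3 genes, each with AL-X above, against 7.78% of all genes with that order and 9.54% with the opposite one. The direction was the same in the 3 lines for 4 genes higher with AL-X (PLAUR, SERPINB8, TIMP1, TIMP2), against 17.0% of all genes, and for 1 lower gene (PLAT), against 25.7%, although with library totals TIMP2 turns to -0.84 log2 units in A549. The median fold of the 8 was 1.04 log2 units, that of all genes tested -0.27. The call depended on the tool. DESeq2 called PLAUR (adjusted p = 0.00991), SERPINB8 (0.00864), PLAT (0.0243) and TIMP1 (0.0284), and limma-voom called PLAUR (0.0304) and SERPINB8 (0.0474), all with folds within 0.05 log2 units of those of edgeR. Of all genes with an adjusted p, 3.24% were called higher and 7.51% lower by DESeq2, against 1.59% and 1.66% by limma-voom.

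**Figure D2:**
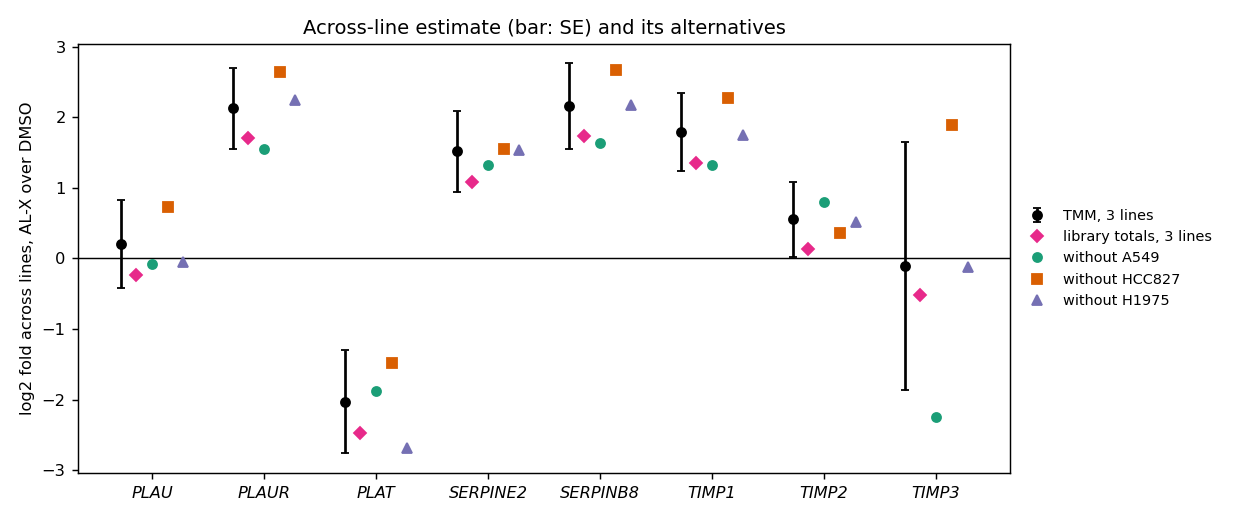
Across-line log2 fold of AL-X over DMSO for the 8 genes that passed the filter, from the 3 lines with TMM scaling (black, bar: SE), with library totals, and with each line left out. PLAUR, SERPINB8, TIMP1 and SERPINE2 stay above 0 and PLAT below 0 in all 5 estimates, while PLAU and TIMP3 lie on either side of it.

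Within a line there is 1 library per treatment, so the next values have no replicate check and no test, and the intervals (exact binomial, 95%) cover counting error only. Genes tested across lines whose higher library reached 5 CPM were considered, and 2-fold was the threshold for counting one. In A549, PLAUR was 10.7-fold higher with AL-X (log2 3.41, interval 3.35 to 3.48), SERPINB8 9.81-fold, TIMP1 6.90-fold and SERPINE2 3.37-fold. These were 4 of the 6 genes considered there, against 30.0% of all genes considered, and 0 were lower against 31.4%. PLAT and TIMP3 were under 5 CPM in A549 and so not considered. Their log2 folds there were -2.19 (52 counts with AL-X, 436 with DMSO) and 2.16 (135 and 53 counts). TMM scaling matters most in this line. Scaling by library totals alone moves the median fold of all genes considered by -1.005 (A549), 0.13 (HCC827) and -0.41 (H1975) on the log2 scale. The A549 folds were then 2.41 for PLAUR, 2.29 for SERPINB8, 1.78 for TIMP1 and 0.75 for SERPINE2. PLAU in A549 was at 0.84 with TMM and -0.17 with library totals, and TIMP2 at 0.16 and -0.84, so the direction of both there depends on the scaling.

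In HCC827, 3 of the 7 genes considered were 2-fold or more higher with AL-X, against 10.7% of all genes. SERPINE2 was 2.48-fold higher (log2 1.31, interval 1.22 to 1.41), PLAUR 2.09-fold (log2 1.06, interval 1.01 to 1.11) and SERPINB8 2.07-fold (log2 1.05). The interval of SERPINB8, 0.97 to 1.13, takes in the threshold itself. PLAT was the 1 lower gene, at -3.14 log2 units (interval -3.32 to -2.98), with 303 counts with AL-X against 3177 with DMSO, and 17.2% of all genes were lower. PLAU, at 14275 counts with AL-X and 32511 with DMSO, was just short of the threshold at -0.95 log2 units. TIMP1 was 1.64-fold higher and TIMP2 1.84-fold. With library totals TIMP2 reached 1.00 log2 units, so that 4 genes were then counted as higher.

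In H1975, 3 of the 6 genes considered were higher, against 15.4% of all genes, and 0 were lower against 17.7%. SERPINB8 was 4.36-fold higher (log2 2.12, interval 2.02 to 2.23), PLAUR 3.83-fold (log2 1.94, interval 1.90 to 1.98) and TIMP1 3.59-fold (log2 1.85, interval 1.80 to 1.89). Among the genes considered in H1975, PLAUR lay at percentile 97.1, SERPINB8 at 97.6 and TIMP1 at 96.6 by fold. PLAU and TIMP2 were 1.61-fold and 1.54-fold higher. PLAT was at -0.70 log2 units, and at -1.11 with library totals, which counts it as lower.

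**Figure D3:**
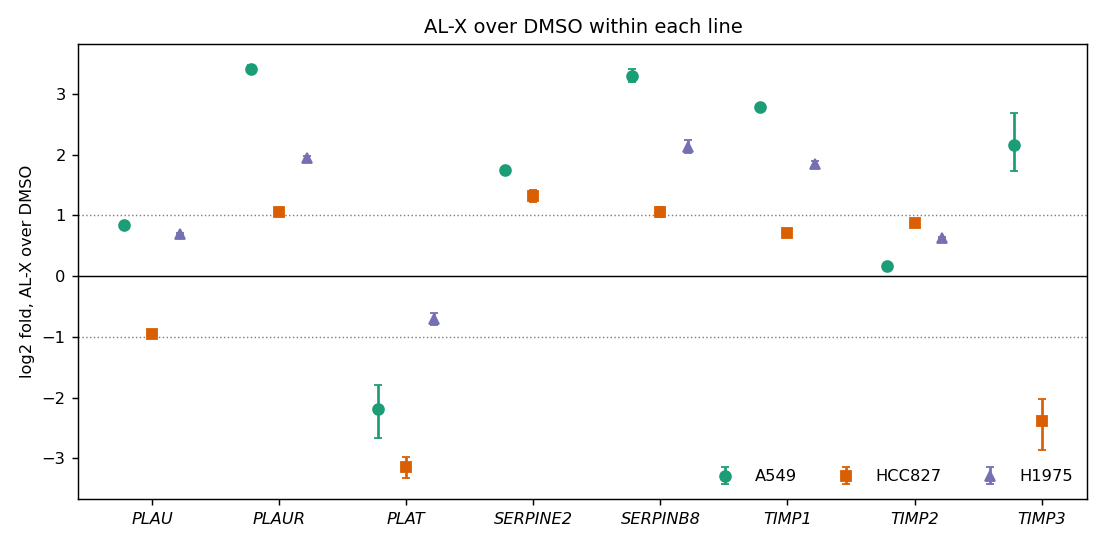
Log2 fold of AL-X over DMSO within each line, with exact binomial 95% intervals for counting error; dotted lines mark 2-fold. For PLAUR, SERPINB8 and TIMP1 the order is A549, then H1975, then HCC827, and PLAU is above 0 in A549 (below 0 with library totals) and H1975 and below 0 in HCC827.

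Whether the lines differed in response was tested by an interaction of each line against the other 2, with 1 residual degree of freedom. The p-values of these fits lean heavily on the variance pooled over all genes. SERPINE2 and TIMP3 had 0 counts in both H1975 libraries. For these genes the A549 and the HCC827 differences are thus the same comparison, A549 with HCC827, seen from either side. In A549 PLAUR exceeded the other lines by 1.91 log2 units (SE 0.88, edgeR adjusted p = 0.416), SERPINB8 by 1.71 (SE 1.02, adjusted p = 0.562) and TIMP1 by 1.51 (SE 0.90, adjusted p = 0.564). HCC827 stood below the other lines for PLAU by -1.71 (SE 1.17, adjusted p = 0.740), and TIMP3 there differed by -4.51 (SE 2.64, adjusted p = 0.667). No gene of the 9 passed for any line, and only PLAUR in A549 reached an unadjusted p under 0.05 (0.0358). With library totals that difference was 1.05 log2 units at an unadjusted p of 0.242, and those of SERPINB8 and TIMP1 in A549 were 0.84 and 0.64. Of all genes 0.280% were called for A549, 0.261% for HCC827 and 0% for H1975.

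A ratio of 2 genes in the same library does not depend on the scaling, and such ratios were formed per kilobase of exon after the values had been seen. The receptor was higher relative to its ligand in each line. With AL-X the PLAUR to PLAU ratio stood at 0.755, 0.383 and 0.160 in A549, HCC827 and H1975, against 0.127, 0.0951 and 0.0675 with DMSO. That is 5.96, 4.03 and 2.38 times the ratio with DMSO, a mean change of 1.94 ± 0.67 log2 units (SD, n = 3 lines). The PLAU to PLAT ratio was 494, 106 and 162 with AL-X, against 59.6, 23.0 and 61.9 with DMSO in A549, HCC827 and H1975, a mean change of 2.21 ± 0.83. In HCC827 this ratio was 4.60 times higher although PLAU itself was lower. SERPINB8 over PLAU changed by 1.97 ± 0.51 log2 units, higher in 3 of 3 lines. The TIMP1 to TIMP2 ratio was 4.01 and 1.45 in A549 and H1975 with AL-X, against 0.649 and 0.624 with DMSO, but in HCC827 it was 1.28 with AL-X and 1.44 with DMSO, so its mean change of 1.23 ± 1.40 is smaller than its SD. No p is given, since 3 pairs cannot go below an exact two-sided p of 0.25.

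**Figure D4:**
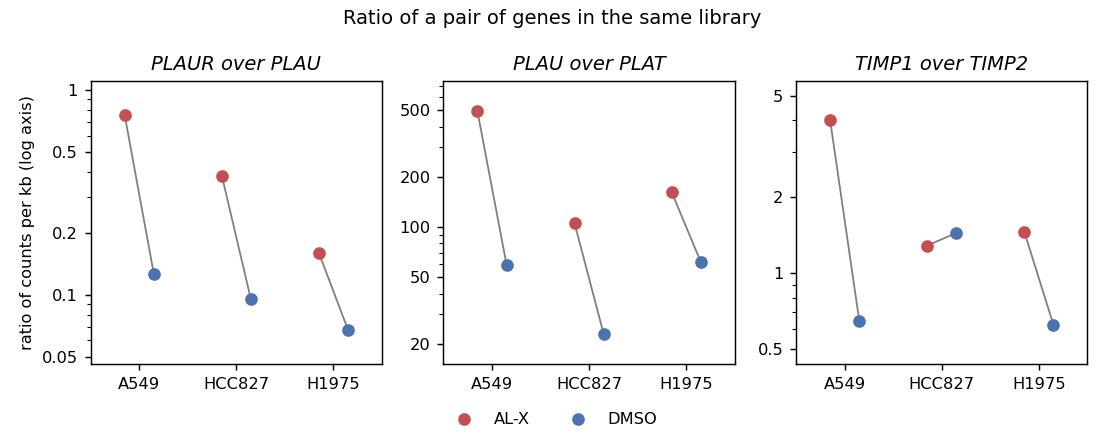
Ratio of counts per kilobase of exon between 2 genes of the same library (log axis), AL-X left and DMSO right within each line. PLAUR over PLAU and PLAU over PLAT are higher with AL-X in all 3 lines, and TIMP1 over TIMP2 is higher in A549 and H1975 only.

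Levels without the compound differed between lines and are described from 1 DMSO library per line, per kilobase of exon. PLAU led in H1975 (193 CPM per kb) and HCC827 (74.8), and was next to TIMP2 in A549 (32.2 against 45.5). TIMP1 was at 27.5 to 29.5 CPM per kb in every line and TIMP2 at 19.7 to 45.5, so their order changed between lines. PLAUR followed at 4.08, 7.11 and 13.0 CPM per kb in A549, HCC827 and H1975. SERPINE2 was above PLAUR in A549, at 10.8 CPM per kb, under 1 in HCC827 (0.963) and at 0 in H1975. PLAT (0.541, 3.26 and 3.11) and SERPINB8 (1.23, 2.25 and 1.25) were low, and TIMP3 and SERPINB2 were under 0.6 in each line, the highest being TIMP3 in HCC827 (0.526). With AL-X TIMP1 was the highest of the 9 in A549 (204 CPM per kb) and in HCC827 (46.3, with PLAU at 38.8). In H1975 PLAU was first at 311. The order between genes depends on the division by exon length. In CPM with AL-X, SERPINE2 (323) was above TIMP1 (314) in A549, and TIMP2 (203) and PLAU (114) were above TIMP1 (71.4) in HCC827.

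Strand use in the counting is not given, so overlapping genes can share reads. PLAU shares 916 exon bases with C10orf55 on the other strand, which had 40 to 90 counts with AL-X and 168 to 332 with DMSO, few beside the 11459 to 92799 and 11590 to 71314 counts of PLAU. SERPINB8 shares 370 exon bases with HMSD (0 to 5 and 0 to 22 counts) and TIMP2 198 with CEP295NL, which had 292 counts in HCC827 with AL-X and 59 there with DMSO. SERPINB10, which shares 547 bases with SERPINB2, had 0 counts throughout. TIMP3 lies within SYN3 on the opposite strand with no shared exon base.

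Other genes of pericellular proteolysis were described from 6 lists of 93 genes in all, of which 75 passed the filter. By edgeR 0 were called. At unadjusted p under 0.05, 3 of the 75 were higher and 7 lower, near the 5.48% and 10.2% of all genes, and their median fold was -0.14 log2 units, against -0.27 for all genes tested. DESeq2 called 3 higher and 4 lower of the 73 to which it gave an adjusted p, and limma-voom 1 and 2 of the 75, near those tools' shares over all genes given above. The genes below are given as single values. The gene of plasminogen itself, PLG, had 0 counts in all 6 libraries. The 6 other genes on the list that holds PLG were tested, and by edgeR 0 reached unadjusted p under 0.05. S100A10, the annexin partner that binds plasminogen, was at 496, 77.5 and 433 CPM in A549, HCC827 and H1975 with AL-X, against 149, 95.3 and 179 CPM with DMSO (log2 fold 0.92, SE 0.60). It was thus higher in A549 and H1975 and lower in HCC827, as was HMGB1 (log2 folds 1.23, -1.23 and 0.65). ANXA2 (0.98, -0.56 and 1.03) and ENO1 (0.99, -0.37 and 0.20) had the same order of signs with TMM, but their A549 folds, and that of ENO1 in H1975, are smaller than the shift library totals bring, so those directions depend on the scaling. CKAP4 and PLGRKT had across-line folds of 0.38 and -0.13.

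Among 13 tested receptors and partners that clear or bind urokinase and PLAUR, 2 were lower at unadjusted p under 0.05. SORL1, a sorting receptor known to bind urokinase complexes and PLAUR, was at 7.23, 16.7 and 12.05 CPM in A549, HCC827 and H1975 with AL-X, against 37.4, 93.9 and 44.7 CPM with DMSO. Its groups did not overlap, its across-line fold was -2.25 log2 units (SE 0.50, edgeR adjusted p = 0.0983), and DESeq2 (adjusted p = 0.000534) and limma-voom (0.0287) called it. LRP1, the endocytic receptor that removes urokinase bound to its inhibitors from the surface, was at 26.2, 51.6 and 67.5 CPM with AL-X, against 205, 79.2 and 165 CPM with DMSO (log2 fold -1.61, SE 0.57, edgeR adjusted p = 0.224). The collagen receptor MRC2, which associates with PLAUR, was at -0.98 (SE 0.54). The LRP1 chaperone LRPAP1 was at 0.76 (SE 0.45), and the integrin genes ITGA3 and ITGA5 at 0.70 (SE 0.68) and 0.87 (SE 0.67). ITGA5 had log2 folds of -0.35, 2.48 and 0.56 in A549, HCC827 and H1975, and MRC2 of -2.02, -0.99 and 0.07.

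Among 12 other tested inhibitors, thrombospondin-1 (THBS1), a matrix protein that binds plasminogen, was at 268, 33.4 and 443 CPM in A549, HCC827 and H1975 with AL-X, against 59.7, 21.0 and 89.9 CPM with DMSO (log2 fold 1.72, SE 0.56, edgeR adjusted p = 0.194, DESeq2 adjusted p = 0.0281). TFPI, the tissue factor pathway inhibitor, was at 30.9, 36.7 and 42.9 CPM with AL-X, against 124, 97.2 and 63.7 CPM with DMSO (log2 fold -1.33, SE 0.49, edgeR adjusted p = 0.238), and its groups did not overlap. SPINT2 was at 0.71 (SE 0.57), SERPINH1 at 0.30, RECK at -0.71 and SERPINA5 at -1.46 (SE 1.01). SERPINH1 had log2 folds of 0.94, -1.02 and 0.92 in A549, HCC827 and H1975, and RECK of -1.68, -0.55 and 0.09. The SERPINH1 fold in A549 is smaller than the shift library totals bring, so its direction there depends on the scaling. The SERPINA5 fold comes from low counts, 0 with AL-X and 30 with DMSO in A549, and 15 and 38 in HCC827. In H1975, where SERPINA5 was clearly detected, it was at 19.0 CPM with AL-X and 19.2 with DMSO. Clade B serpins other than the 2 above did not share the pattern of SERPINB8. SERPINB1 had log2 folds of -2.15 (A549), -1.61 (HCC827) and 0.03 (H1975) (across-line -1.26, SE 0.55, edgeR adjusted p = 0.301), and SERPINB5, SERPINB6 and SERPINB9 were at 0.24, 0.00 and -0.31. SERPINB9 was higher in A549 (log2 fold 1.18 with TMM scaling) and had 0 counts in both HCC827 libraries. In H1975 SERPINB9 had 21 counts with AL-X and 101 with DMSO. SERPINB5 had 0 counts in both A549 libraries. SERPINB3, at a mean of 0.446 CPM over the 6 libraries, was called lower by DESeq2 (adjusted p = 0.00467) and limma-voom (0.0492).

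Of 21 tested metalloproteinase genes, 1 was higher and 1 lower at unadjusted p under 0.05, ADAMTS1 and MMP16, both of low level and both called by DESeq2. ADAM17, the sheddase of EGF-family ligands, was at 233, 254 and 84.3 CPM in A549, HCC827 and H1975 with AL-X, against 113, 116 and 76.7 CPM with DMSO (log2 fold 0.77, SE 0.50). Its line folds were 1.05, 1.13 and 0.14 log2 units. Library totals shift folds by -1.005 in A549, close to the ADAM17 fold there. The shift of -0.41 in H1975 is larger than the ADAM17 fold, so its direction in H1975 depends on the scaling. ADAM15 was at 0.46 and ADAM12 at -1.05, MMP13 at -0.90, MMP17 at -0.83 and MMP7 at 0.69 (SE 1.51). MMP17 had log2 folds of -1.36, -1.47 and 0.43 in A549, HCC827 and H1975 with TMM scaling. MMP7 had a log2 fold of 1.31 in A549 with TMM scaling and was near 0 in the other lines. Its counts were 0 with AL-X and 25 with DMSO in HCC827, and 13 and 0 in H1975. MMP13 had 0 counts in both A549 libraries. Of 16 tested serine and cysteine proteases, CTSL, the lysosomal and secreted cathepsin L, was at 977, 354 and 389 CPM in A549, HCC827 and H1975 with AL-X, against 420, 39.8 and 138 CPM with DMSO. Its across-line fold was 1.94 log2 units (SE 0.66, edgeR adjusted p = 0.211), and DESeq2 (adjusted p = 0.0156) and limma-voom (0.0406) called it. Tissue factor (F3) was at 5.31, 89.6 and 285 CPM with AL-X, against 1.62, 146 and 65.2 CPM with DMSO. F3 was thus higher in A549 and H1975 and lower in HCC827. PLAU had the same directions with TMM scaling, but its direction in A549 depends on the scaling. CTSB was at 0.53, PRSS8 at -0.51, the hepatocyte growth factor receptor MET at -0.73 (SE 0.59) and the membrane protease TMPRSS4 at -2.52 (SE 0.93). A549 had 0 counts for TMPRSS4 in both libraries. PRSS8 had log2 folds of 0.90 in HCC827 and -0.97 in H1975. In A549 PRSS8 had 0 counts with AL-X and 7 with DMSO.

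For the genes of the 9 that averaged 5 CPM or more, the most similar genes over the 6 libraries (log2 CPM) were sought among 11727 tested genes with a symbol and the same minimum. These correlations describe 6 points that share lines and depth. PLAUR was nearest to COA8 (Pearson r = 0.998), EIF4HP1 (0.996) and SH3BGRL3 (0.996), and TIMP1 to NDUFAF3 (0.999), RTF2 (0.997) and NFE2L2 (0.997). SERPINB8 was nearest to ZNF622 (0.994), whose log2 folds of 3.97, 1.04 and 2.01 in the 3 lines stand beside 3.29, 1.05 and 2.12 for SERPINB8. PLAU was nearest to CAPG (0.995), PLAT to HPDL (0.987), SERPINE2 to MTIF2 (0.996) and TIMP2 to CACNB1 (0.978). The r of MTIF2 follows levels between lines and not a shared response to AL-X. Its log2 folds were 0.04 in A549 and 0.13 in HCC827, against 1.75 and 1.31 for SERPINE2. By the distance between the 3 line folds, SERTAD2 and ABHD5 were nearest to SERPINB8 (0.0697 and 0.106), ZNF565 and CDK11A to PLAUR (0.156 and 0.179) and SERTAD3 and SNHG5 to TIMP1 (0.177 and 0.183). ARHGEF25 was nearest to PLAT (0.157).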

How the data were processed

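Trizol-extracted total RNA went into SureSelect mRNA libraries, per the labels' protocols. The submitters' processing notes name bcl2fastq 2.20 and GRCh38. Counts per Ensembl gene were deposited by the authors as whole numbers, without normalization. The aligner, counter, annotation release and strand setting were not stated in the labels or the table.

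Symbols matched 60401 of 60671 identifiers. Positions and merged exonic lengths come from GENCODE release 29. The main test was edgeR 4.0.16 in R 4.3.3 (TMM, filterByExpr, robust quasi-likelihood, Benjamini-Hochberg over 20344 genes), with the line as block and 2 residual degrees of freedom. The libraries of a line share that line by the labels, and their deviations from the group means correlated at 0.656, 0.521 and 0.694 in A549, HCC827 and H1975. The SE follows from fold and F. edgeR pools the variance of each gene with that of all genes tested, so its p-values do not rest on that gene's spread between lines alone. No p-value measures the spread within a line. Within-line folds used a prior count of 2.

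Members, lists, motifs and tests were chosen with earlier results of these data known. Named genes are the 9, up to 3 at either end of each list by fold with at least 5 CPM on average, and nearest genes. SERPINB3, ADAMTS1, MMP16 and the overlapping genes were named after their values were seen. Alternatives were other scalings and filters, DESeq2 1.42.0, limma-voom 3.58.1, no block and each line left out. The across-line fit was also run on simulated counts with the same fold in every line, unlike these data, and the outcome is not given here. Some genes of this system are not analysed here.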

Additional observations from a re-analysis of the deposited data

How the results depend on the processing

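Each line has 1 library per treatment, so the spread within a line was not measured. Low counts limit SERPINB2, which had at most 31 counts in a library. Of 12 alternatives to the across-line fit, 10 called 0 of the 9 genes. DESeq2 called 4 and limma-voom 2, and of the other pericellular genes 7 and 3. Over the 12, PLAUR ranged from 1.55 to 2.64 log2 units, SERPINB8 from 1.64 to 2.67, TIMP1 from 1.33 to 2.28, SERPINE2 from 1.08 to 1.72, TIMP2 from 0.13 to 0.80 and PLAT from -2.69 to -1.48, with no change of sign.

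PLAU reversed to -0.23 with library totals, -0.0815 without A549 and -0.0552 without H1975 (range without a line -0.0815 to 0.725), and TIMP3 to 1.89 without HCC827 (range -2.25 to 1.89). TIMP3 failed a filter of 1 CPM in 3 libraries, which gave no value. With library totals the SERPINE2 difference between A549 and HCC827 reversed, to -0.67 seen from A549 and 0.71 seen from HCC827. H1975 had 0 counts of SERPINE2, so these values are the same comparison. Also with library totals, 1 of the 9 genes was 2-fold lower in H1975 in place of 0.

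Over all genes, the counts called higher and lower were 20 and 32. They were 0 and 0 with library totals, with no filter and without the replicate block, 8 and 4 with mitochondrial genes left out, 608 and 1409 by DESeq2, and 323 and 338 by limma-voom. Leaving out a line, with 1 residual degree of freedom, gave 28 to 127 higher and 57 to 78 lower. Without the replicate block (no pairing by line) PLAUR was 2.16 (adjusted p = 0.570) and PLAT -1.52 (adjusted p = 0.707), and 0 of the 9 were called. The cause of these shifts was not tested.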
